A study of Homo sapiens with 3 samples.

Results

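The genes described here are 10 of the 20037 protein-coding genes placed on the chromosomes of the peak list: the coactivator genes YAP1 and WWTR1, the DNA-binding partners TEAD1 and TEAD4, the kinase gene LATS2, the adaptor gene AJUBA, and the target genes CCN1, CCN2, ANKRD1 and AMOTL2. They were taken by symbol from a GRCh38 gene table, and every ATAC peak overlapping a gene or the 50 kb on either side of it was assigned to that gene. The peaks came from replicate 2 of hCMEC/D3, an immortalized cell line from human brain microvessel endothelium, grown to confluence in endothelial cell medium on rat collagen type I and used at passages 4 to 6. ATAC-seq lets the Tn5 transposase cut and tag open DNA, so tags pile up where chromatin is accessible. There was 1 ATAC library of a single line, with no second group, so no test was made and each value stands without a replicate error. Pileup is the number of tags stacked over a position, and fold is pileup over the local background estimated by the peak caller from the same library. The peaks were called in broad mode, in which the caller gives both values as means over the whole peak, not at a summit. Pileups of narrow and broad peaks are therefore not compared at their highest points. In a bulk library, a site open in more cells and a site cut more often in each cell cannot be told apart. The genes were chosen by the number, position, length and pileup of their peaks in this list, so those values are descriptions and support nothing by themselves.

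YAP and TAZ (the product of WWTR1) are coactivators that do not bind DNA themselves and act through TEAD factors, which recognize the core sequence GGAATG. The Hippo kinases LATS1 and LATS2 phosphorylate YAP and TAZ and hold them out of the nucleus. CCN1 and CCN2 encode secreted matricellular proteins and are the textbook targets of the pathway, and AMOTL2 and LATS2 are both targets and inhibitors of YAP. In endothelium the pathway is known for its response to stretch, flow and cell density and for its part in sprouting of vessels.

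The sequences before the annotated starts are shown for the genes whose start windows held the TEAD core, since that core ties the factors to their targets. RefSeq entries of assembly GRCh38.p14, each running from 250 bases before to 50 bases after a start, were found for 7 of the 10 genes. CCN1, TEAD1 and TEAD4 had no entry. Below are the 250 bases before the start, 5′ to 3′ in the direction of transcription, with GGAATG on either strand (CATTCC where it lies on the opposite strand) and TATAAA in capitals. They lie at chr6:131951373-131951622, minus strand, for CCN2, at chr10:90921088-90921337, minus strand, for ANKRD1, at chr3:134374448-134374697, minus strand, for the inner start of AMOTL2, and at chr11:102110197-102110446, plus strand, for YAP1.
CCN2: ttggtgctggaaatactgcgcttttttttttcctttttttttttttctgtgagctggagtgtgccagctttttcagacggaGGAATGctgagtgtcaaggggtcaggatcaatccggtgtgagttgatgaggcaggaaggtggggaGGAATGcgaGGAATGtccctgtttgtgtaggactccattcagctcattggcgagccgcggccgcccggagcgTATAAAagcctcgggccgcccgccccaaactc
ANKRD1: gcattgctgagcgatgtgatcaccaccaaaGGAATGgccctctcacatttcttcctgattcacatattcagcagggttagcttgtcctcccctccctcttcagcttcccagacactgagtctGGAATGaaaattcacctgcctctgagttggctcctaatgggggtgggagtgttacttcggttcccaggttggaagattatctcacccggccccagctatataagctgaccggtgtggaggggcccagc
AMOTL2: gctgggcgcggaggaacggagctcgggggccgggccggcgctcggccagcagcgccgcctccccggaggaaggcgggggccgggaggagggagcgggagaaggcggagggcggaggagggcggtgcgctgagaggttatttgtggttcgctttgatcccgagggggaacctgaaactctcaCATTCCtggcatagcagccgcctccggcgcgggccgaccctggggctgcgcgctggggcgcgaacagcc
YAP1: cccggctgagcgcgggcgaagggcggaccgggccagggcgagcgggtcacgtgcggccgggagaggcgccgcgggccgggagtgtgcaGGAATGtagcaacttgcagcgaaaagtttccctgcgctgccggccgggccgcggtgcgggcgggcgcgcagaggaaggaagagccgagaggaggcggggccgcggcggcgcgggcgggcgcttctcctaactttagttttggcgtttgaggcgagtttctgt
For 2 more genes only the 30 bases around the core are given. They lie before the inner start of AJUBA, at chr14:22976884-22976913, minus strand, and over the start of LATS2, at chr13:21061560-21061589, minus strand.
AJUBA: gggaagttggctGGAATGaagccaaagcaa
LATS2: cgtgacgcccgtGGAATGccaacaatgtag

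GGAATG, searched on both strands, was found in a start window of 6 of the 7 genes, compared with 15.6% of the 15843 protein-coding genes that have a start window. WWTR1 was the gene without it. CCN2 held 3 matches, beginning 169, 104 and 95 bases before the start, and 0.145% of protein-coding genes held 3 or more in a window. ANKRD1, which encodes an ankyrin repeat protein that acts as a transcriptional cofactor, held 2 matches, beginning 220 and 128 bases before the start. In LATS2 the match lay after the start. The longer forms GGAATGT or AGGAATG were found in 4 of the 7 genes, compared with 7.49% of protein-coding genes. A TATAAA match was found in 1 of the 7 genes, CCN2, beginning 32 bases before its start, compared with 12.4% of protein-coding genes. CCN2 was thus the 1 gene of the 7 with both GGAATG and TATAAA, compared with 2.61% of protein-coding genes. Only the exact string TATAAA was searched. The ANKRD1 stretch above holds the similar tatataag shortly before its start, which this search does not count. TGANTCA, a loose form of the AP-1 motif with any middle base, was found in 1 of the 7 genes, compared with 8.04% of protein-coding genes. That gene was ANKRD1, with the match beginning 195 bases before its start. The match reads TGATTCA, whereas the AP-1 consensus has C or G in the middle, so it is not a consensus AP-1 site. The 3 motifs did not overlap in these windows. These are matches of letters and were not tested as binding sites.

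All 9 GGAATG matches lay within a called peak, as the plot of peaks and motifs at the starts shows. The genes were chosen with the position of their peaks in view, so this is a description only. The share of all GGAATG matches that lie within a peak was not worked out. Each of the 7 genes had a peak over at least 1 start window, compared with 70.2% of protein-coding genes. Over all 22199 protein-coding start windows, a peak was called at 56.8% of those with GGAATG and at 65.9% of those without it, so across all genes the core did not go with a higher share. Of the 10 start windows of the 7 genes, 8 met a peak and 6 lay wholly within it.

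**Figure D1:**
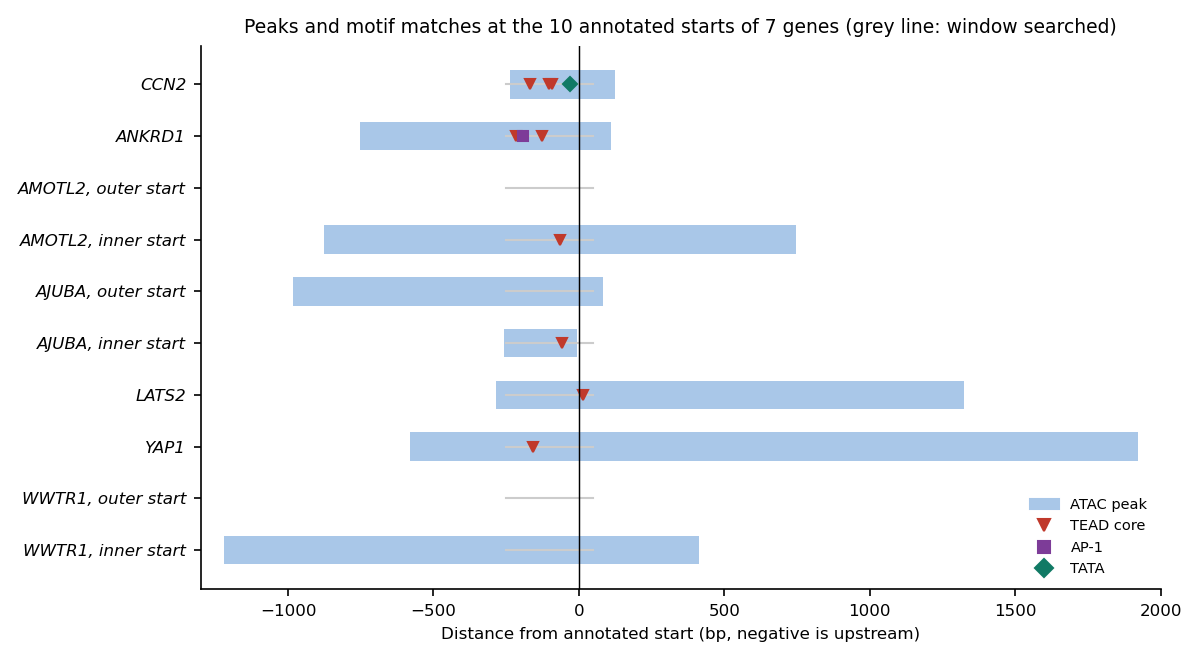
Each row is an annotated start of a gene, and the horizontal axis is the distance from that start in bp, with negative values upstream. Blue bars are ATAC peaks, and the grey line is the window of 250 bases before to 50 after the start. Symbols mark matches to the TEAD core, to the loose AP-1 form TGANTCA (labelled AP-1) and to TATAAA (labelled TATA). The 2 starts without a bar are the outer starts of AMOTL2 and WWTR1, and all 9 TEAD core matches sit within bars.

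The peaks at the starts differed in width and pileup. The CCN2 start was covered by a peak at chr6:131951248-131951608 that was only 361 bp wide but had a pileup of 104 tags. Among the 14378 protein-coding start windows with a peak, 0.814% had a pileup as high, and 95.9% had a peak at least as wide. ANKRD1 had the same order of pileup, 107 tags, in a peak of 865 bp at chr10:90920976-90921840, with a fold of 6.13. YAP1 stood at the other extreme, with a peak of 2502 bp at chr11:102109868-102112369 that ran from 579 bp upstream to 1922 bp downstream of the start and had a pileup of 37.4 tags. A peak as wide was found at 0.800% of the start windows with a peak, and a pileup as high at 69.3%. The start peaks of AMOTL2 (inner start), WWTR1 (inner start) and LATS2 were alike in width, at 1622, 1635 and 1610 bp, with pileups of 73.5, 77.4 and 45.7 tags.

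AMOTL2, WWTR1 and AJUBA each have 2 annotated starts in the table. In WWTR1 the inner start lay inside a peak at chr3:149657612-149659246, whereas the nearest peak to the outer start was 14199 bp away. In AMOTL2 the inner start lay inside a peak, and the window of the outer start began 46 bp beyond that peak. In both genes the start without a peak was the poorer in CG dinucleotides, with 1 against 13 in the 250 bases before the start in WWTR1 and 0 against 29 in AMOTL2. The 2 WWTR1 stretches are shown to make this visible, with each CG in capitals, the outer start at chr3:149703274-149703523 and the inner at chr3:149658026-149658275, both on the minus strand.
WWTR1 outer start: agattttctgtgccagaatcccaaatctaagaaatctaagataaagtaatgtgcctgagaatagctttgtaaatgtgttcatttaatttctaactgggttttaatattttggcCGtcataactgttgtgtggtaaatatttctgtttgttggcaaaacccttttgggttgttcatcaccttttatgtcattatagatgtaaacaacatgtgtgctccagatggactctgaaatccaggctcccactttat
WWTR1 inner start: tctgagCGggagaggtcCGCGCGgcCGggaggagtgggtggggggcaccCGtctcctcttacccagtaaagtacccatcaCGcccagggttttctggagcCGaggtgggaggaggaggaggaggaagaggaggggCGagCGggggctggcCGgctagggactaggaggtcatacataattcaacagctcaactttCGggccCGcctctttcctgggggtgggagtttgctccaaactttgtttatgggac
The same direction held over all protein-coding start windows: a peak was called at 15.9% of the 4933 windows with 0 to 4 CG, at 54.8% of the 5140 with 5 to 14 and at 88.9% of the 12126 with 15 or more. AJUBA did not follow it, since both of its starts met a peak. Its outer start, with 20 CG, met a peak of 1069 bp, and its inner start, with 3 CG, a peak of 253 bp. The pileups of those peaks were close, at 42.8 and 41.2 tags. ANKRD1 did not follow the direction either. Its start, with 4 CG in the 250 bases before it, met a peak with a pileup of 107 tags.

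CCN2 had 15 peaks within 50 kb, of which 2 lay within 1 kb of a gene end, none inside the gene away from its ends and 13 in the flanks. Its second end peak, at chr6:131945831-131949410, spanned 3580 bp and was the widest of the 106415 peaks in the list. Because CCN2 is on the minus strand, this broad peak lay over the downstream part of the gene and beyond it, not over the start, which had the narrow peak described above. The broad peak had a mean pileup of 90.8 tags with a fold of 1.85, and the start peak had a fold of 1.96. Another strong peak, of 848 bp and 98.8 tags, lay 2910 bp upstream of the start at chr6:131954282-131955129. By pileup these 3 peaks ranked 607, 185 and 290 in the list, while by fold the broad peak and the start peak lay at its low end, with 0.106% and 0.225% of all peaks no higher. Another pair of peaks stood above the rest of the locus, 25120 and 28419 bp upstream of the start, with pileups of 50.4 and 73.8 tags. Every one of the 15 peaks also overlapped CCN2-AS1, a long noncoding RNA gene annotated across the locus, and none overlapped another protein-coding gene.

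CCN1 had 19 peaks, the most of the 5 genes shorter than 50 kb. Its only end peak, at chr1:85583128-85585382, was 2255 bp wide with a pileup of 99.9 tags and lay over the upper-coordinate end of the gene. CCN1 had no start entry, so its strand was not read and this peak is not to be taken as a peak at its start. The nearest peak to the lower-coordinate end stopped 1903 bp short of it and had a pileup of 88.8 tags. The highest pileups around CCN1 were not at the gene. A peak of 875 bp at chr1:85606933-85607807, 22983 bp from the gene, had a pileup of 118 tags, the 57th highest of the 106415 peaks. A peak 27856 bp from the gene, at chr1:85611806-85612302, had 107 tags, and both lay in no annotated gene of the table. On the lower-coordinate side, 9 of the flank peaks fell within the neighbouring gene DDAH1 and 2 of these at its end, so they could belong to either gene.

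ANKRD1 had 11 peaks and was the member with the fewest. Both ends carried a peak: the start peak described above, and at the other end a peak of 2281 bp at chr10:90911144-90913424. That peak had a mean pileup of 60.8 tags, with a fold of 2.28. The ends thus differed in the way those of CCN2 did, with a narrower peak at the start and a broader one at the far end. The mean pileup was higher in the narrower peak, which does not show which peak had the higher summit. A single peak of 280 bp lay inside. The strongest flank peak was 1651 bp wide, 9038 bp upstream of the start, with a pileup of 88.7 tags.

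AMOTL2 encodes an angiomotin family scaffold of endothelial junctions that binds YAP. Of its 16 peaks, 1 lay at an end, 3 inside and 12 in the flanks. The 3 peaks inside the gene had pileups of 60.6, 84.5 and 102 tags, and the highest of them, of 505 bp at chr3:134369240-134369744, exceeded the 73.5 tags of the start peak. In the lower-coordinate flank a peak of 2202 bp at chr3:134326259-134328460 had a pileup of 70.4 tags and overlapped a long noncoding RNA gene. A small peak of 201 bp stopped 1018 bp from the lower end and so fell just outside the 1 kb limit, while a peak 831 bp beyond the upper end of TEAD4 fell just inside it.

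AJUBA encodes a LIM domain protein that binds LATS kinases and restrains them. It had 17 peaks, and its gene body of 11375 bp held 5 of them besides 2 at the upper end. Among the 3687 protein-coding genes within 1.5-fold of its length, 0.0271% had as many inside peaks. These 7 peaks were small, from 250 to 1069 bp, with pileups from 33.6 to 50.7 tags and folds from 1.78 to 3.11. The inside peaks that begin at positions 22974628, 22976849 and 22980546 had −log10 q of only 4.27, 3.92 and 4.25. With −log10 q of at least 5, AJUBA kept 11 of its 17 peaks, and the share for inside peaks was not worked out at that limit. The highest pileup in the window, 83.7 tags, belonged to a peak inside C14orf93, a neighbouring gene, and 7 of the 10 flank peaks lay inside another protein-coding gene. LATS2 had 19 peaks, 1 at the start, 9 inside and 9 in the flanks. The LATS2 peak of highest pileup was not at the gene: a peak of 952 bp lay 18084 bp upstream of the start at chr13:21079670-21080621 with 62.0 tags. Its 9 inside peaks ran from 17.8 to 40.4 tags.

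WWTR1 had 42 peaks and TEAD1 had 38, the highest numbers among the 10 genes, which are also the 2 longest at 207554 and 270317 bp. In TEAD1, which encodes a widely expressed TEAD factor, 34 peaks lay inside, 1 at an end and 3 in the flanks. The inside peaks of TEAD1 were mostly small, with medians of 441 bp and 24.1 tags, and the highest pileup was 69.0 tags, in a peak of 1570 bp at chr11:12692646-12694215. The TEAD1 end peak, of 1346 bp at chr11:12673823-12675168, had a pileup of 59.3 tags. WWTR1 was the only one of the 10 genes with no peak within 1 kb of either annotated end, although 28 peaks lay inside it, among them the peak over its inner start. Its peak of highest fold, 12.2, was a 405 bp peak with a pileup of 56.5 tags inside the neighbouring gene TM4SF4, 36483 bp from WWTR1. In the list as a whole 99.97% of the peaks had a fold no higher.

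TEAD4 and YAP1 are 81280 and 122978 bp long. TEAD4 had 18 peaks, with 2 at the ends, 9 inside and 7 in the flanks, and 3 neighbouring peaks at and just inside its lower-coordinate end had pileups of 52.0, 44.3 and 49.2 tags. YAP1 had 15 peaks, with 1 at the start, 8 inside and 6 in the flanks, and none reached 50 tags. The highest of them, at 48.8 tags, lay 35063 bp beyond the downstream end at chr11:102268487-102269049. The highest inside YAP1 had 46.5 tags, above the 37.4 tags of the start peak. The map of peaks shows CCN1, CCN2, ANKRD1 and AMOTL2 with tall peaks at and near the gene, and WWTR1 and TEAD1 with many lower peaks along the gene body.

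**Figure D2:**
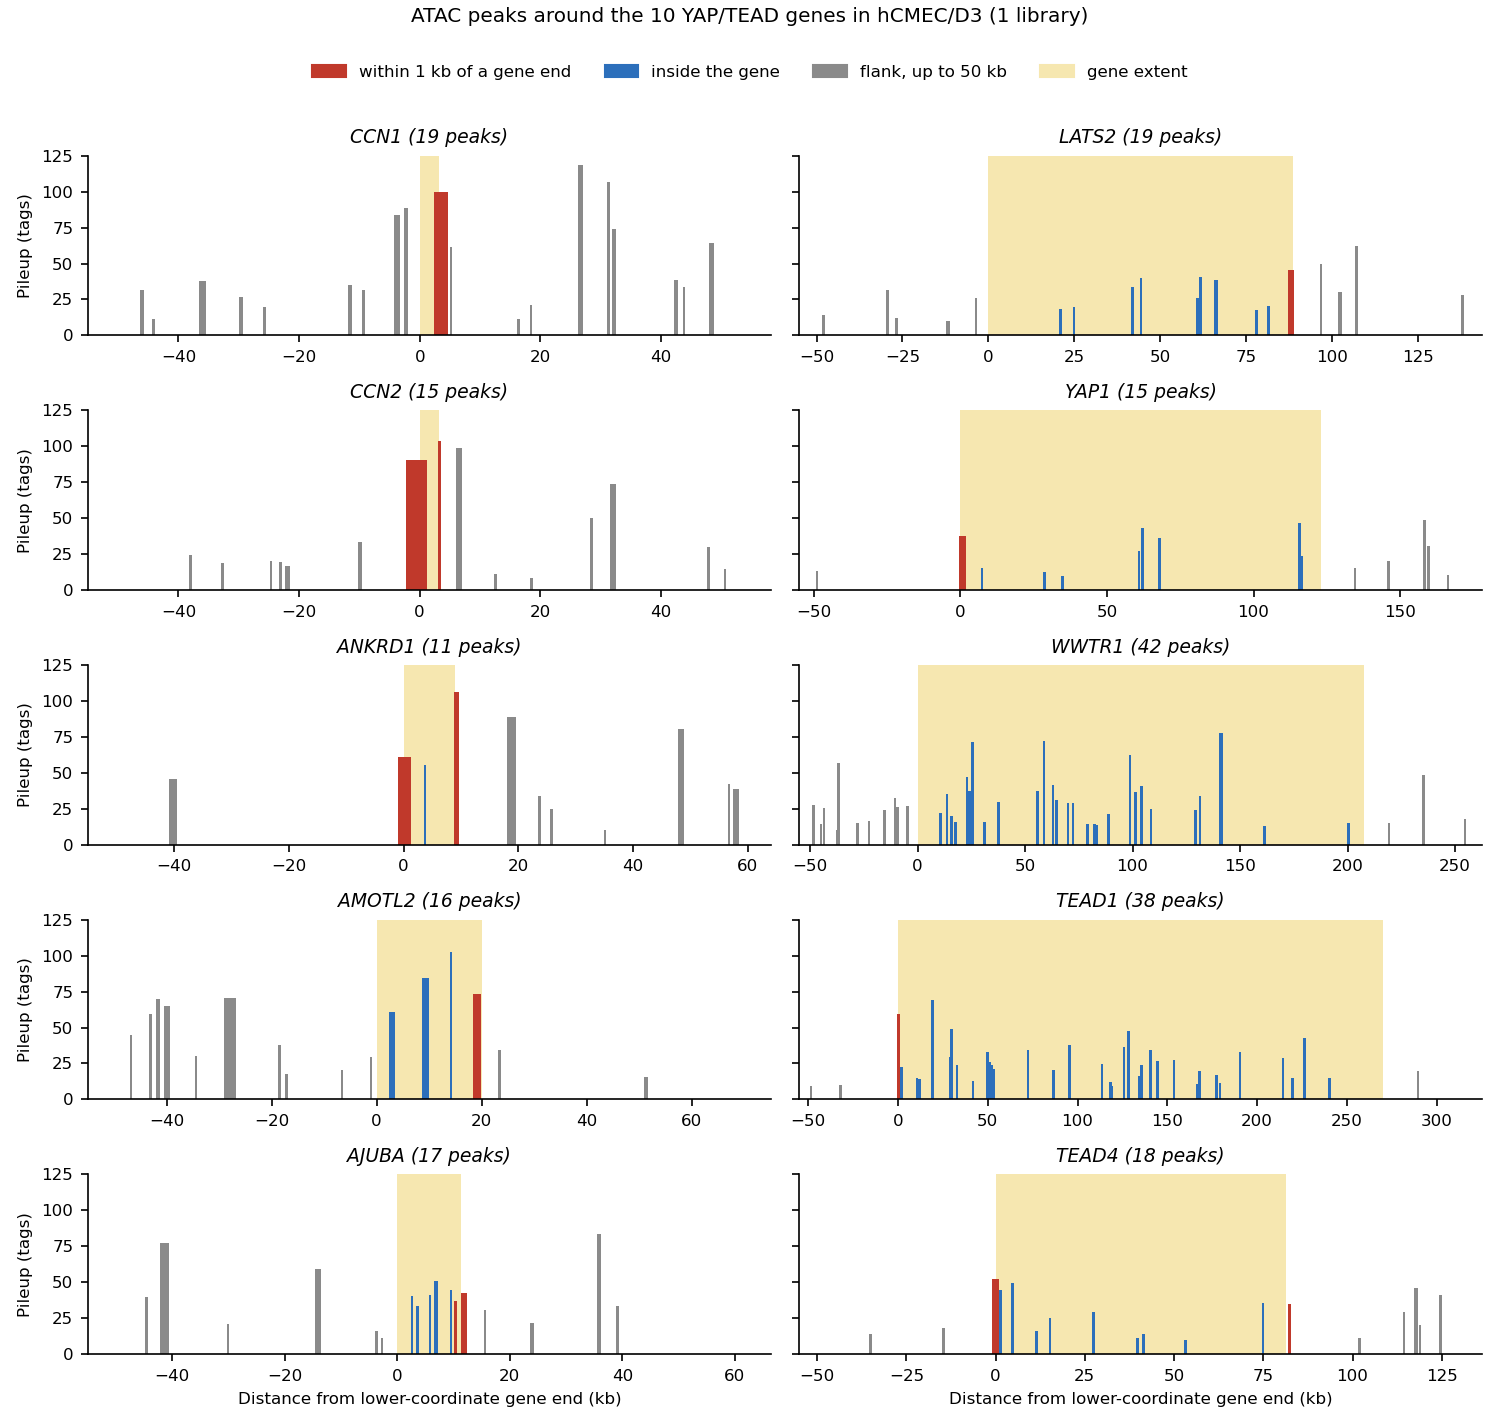
Each panel shows the peaks of a gene as bars at their distance in kb from the lower-coordinate end of the gene, with the pileup in tags as height and the gene extent shaded; peaks too narrow to see are drawn at a minimum width. Red bars lie within 1 kb of a gene end, blue bars inside the gene and grey bars in the flanks. Bars above 80 tags occur around CCN1, CCN2, ANKRD1, AMOTL2 and AJUBA and in none of the other 5 panels.

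Together the 10 genes had 210 distinct peaks within 50 kb, of which 13 lay at ends, 97 inside and 100 in flanks. Of the flank peaks, 11 were at an end of another protein-coding gene and 30 were inside or at an end of such a gene. Pileups of the 210 ran from 8.7 to 118 tags with a median of 29.6, compared with a median of 21.6 over the whole list. A pileup of at least 80 tags was reached by 14 of them (6.67%), compared with 1.39% of all peaks. These 14 comprised 5 at CCN1, 3 at CCN2, 3 at ANKRD1, 2 at AMOTL2 and 1 at AJUBA.

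Each gene was then set beside the protein-coding genes whose length was within 1.5-fold of its own. All 10 genes had more peaks than the median of those genes, where 46.9% of all protein-coding genes exceed their own such median. The median number was 17.5 peaks per gene over the 10, and 9 over all protein-coding genes. WWTR1 stood out most, with 42 peaks against a median of 13, and 1.30% of 1541 genes of similar length had as many. CCN1 came next, with 19 against 8 and 2.24% of 1740 genes as high. ANKRD1 and YAP1 did not pass the upper quartile of their comparison genes: 35.9% of genes of similar length had as many peaks as ANKRD1, and 35.9% as many as YAP1. The number of bases covered by peaks also exceeded the comparison median in all 10 genes, where 49.9% of all protein-coding genes do, with a median of 11.4 kb over the 10 and 5.63 kb over all protein-coding genes. YAP1, with 9.72 kb, was the 1 gene that did not pass the upper quartile.

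The highest pileup in the window separated the genes further. It exceeded the comparison median in 8 of the 10 genes, where 49.9% of all protein-coding genes do. CCN1 reached 118 tags against a median of 59.2 in genes of similar length, and 0.626% of them had a value as high. The corresponding shares were 2.44% for CCN2, 2.09% for ANKRD1 and 2.78% for AMOTL2. The exceptions were YAP1 at 48.8 tags and TEAD4 at 52.0 tags, whose comparison medians were 58.5 and 58.9 tags. TEAD1, with 38 peaks, had a highest pileup of 69.0 tags, a value that 27.9% of genes of similar length reached.

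**Figure D3:**
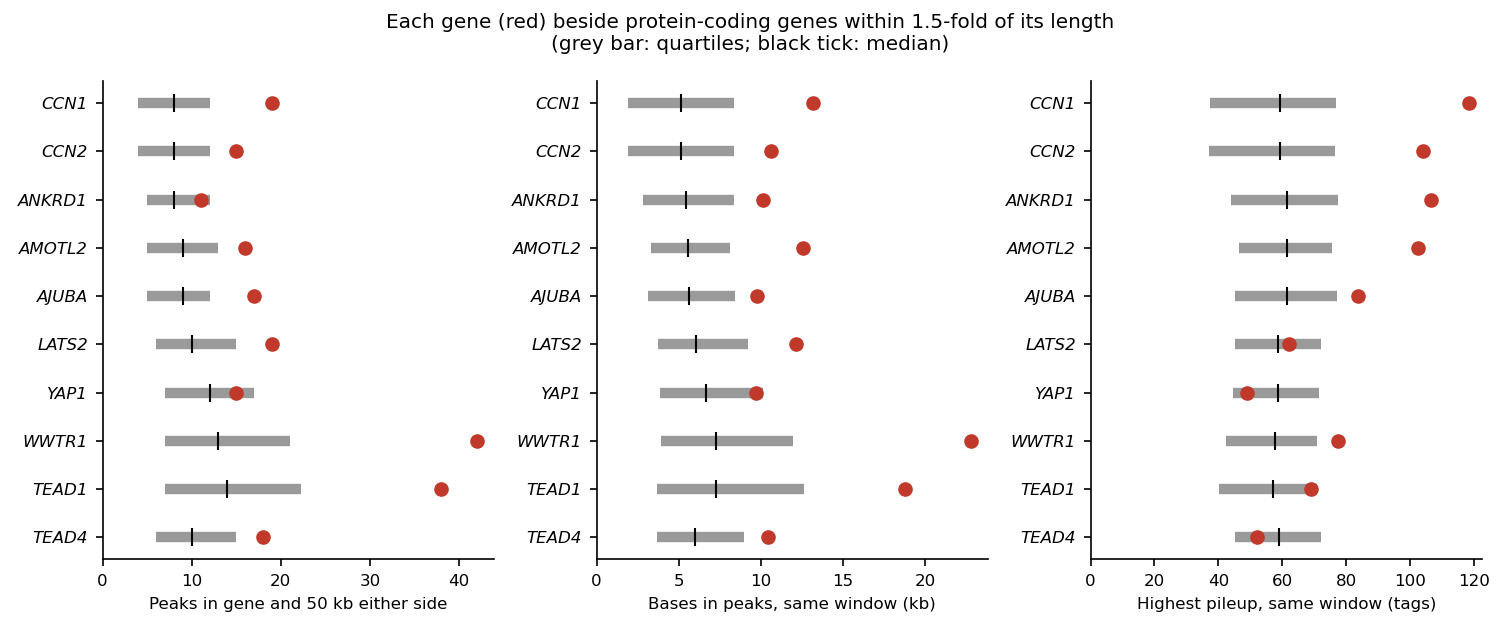
Red points give each gene's number of peaks, kb of bases in peaks and highest pileup in tags within the gene and 50 kb on either side; grey bars give the quartiles and black ticks the median of protein-coding genes within 1.5-fold of its length. All 10 points lie right of the tick for peaks and bases, and YAP1 and TEAD4 lie left of it for the highest pileup.

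By the covered bases alone, the genes of similar length closest to CCN2, which had 10602 bp, were UPK2 with 10604 bp, LCN10 with 10599 bp and C19orf67 with 10613 bp. Their widest peaks were 2325, 1500 and 2494 bp, all narrower than the 3580 bp at CCN2. Those closest to CCN1, which had 13157 bp, were LOC101929937 with 13162 bp, ISYNA1 with 13190 bp and CATSPERZ with 13208 bp. Their highest pileups were 65.2, 51.0 and 76.0 tags, all below the 118 tags at CCN1. This likeness is a difference in bases within 1 library.

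A peak at a gene end, the start or the other end, was present in 9 of the 10 genes (90%, 95% Wilson interval 59.6% to 98.2%), compared with 72.8% of protein-coding genes (72.2% to 73.5%), whose share lay inside that interval. Peak position was among the values that chose the genes, so the interval is a description and not a test. Peaks at both ends were present in 3 of the 10, CCN2, ANKRD1 and TEAD4, compared with 15.4%. An end peak of at least 2000 bp was found in 4 of the 10 genes, CCN1, CCN2, ANKRD1 and YAP1, compared with 3.0% of protein-coding genes. The limit of 2000 bp was chosen after the widths were seen, and peak length was among the values that chose the genes, so nothing is read from this count. The 13 end peaks of the 10 genes were wide, with a median of 1610 bp where the 15869 peaks at protein-coding gene ends had 944 bp. Their pileup was also higher, with a median of 59.3 tags where those peaks had 40.1. Their median fold was lower, at 2.93 compared with 4.71.

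**Figure D4:**
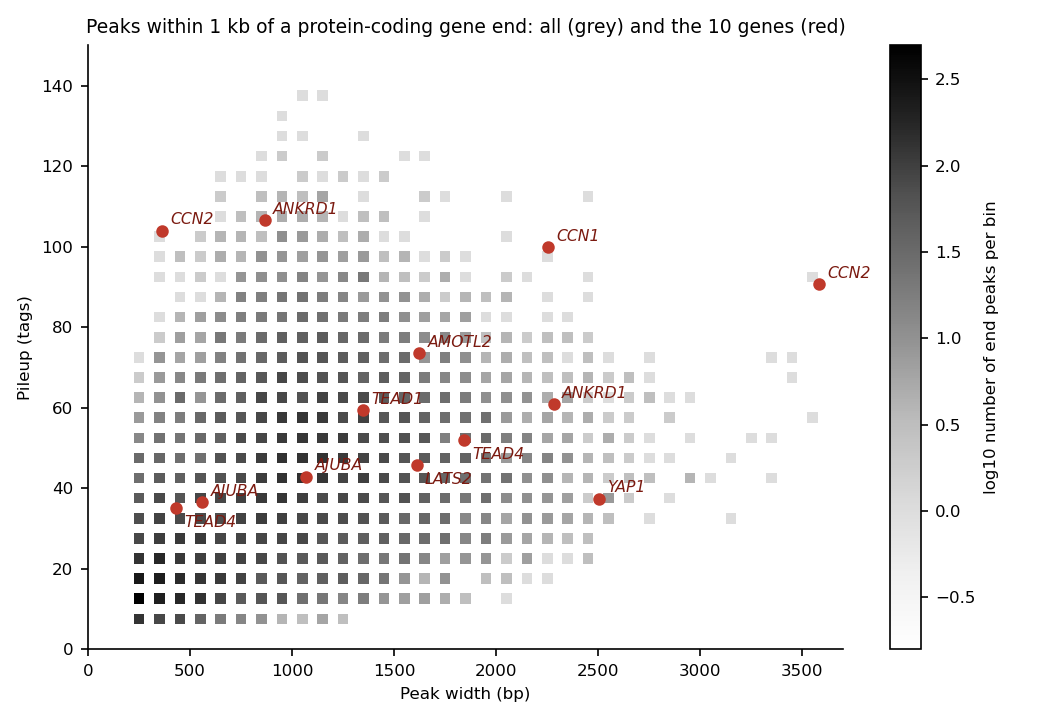
The width in bp and the pileup in tags of each peak within 1 kb of a protein-coding gene end, as counts per bin on a grey log10 scale, with the 13 end peaks of the 10 genes as labelled red points. The broad CCN2 peak, at 3580 bp and 90.8 tags, lies at the right edge, and the CCN2 start peak, at 361 bp and 104 tags, at the upper left.

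The local background under each peak was worked back from the deposited pileup and fold, so for a given pileup a low fold and a high background are the same observation. Since both are means over the peak, the value is approximate where the background varies within a peak. With no control, the caller estimates it from the same tags over stretches of up to 10000 bp, which include the peak itself and its neighbours. This background is therefore not independent of the width, pileup and crowding of the peaks. It was 48.6 tags under the broad CCN2 peak and 52.5 under the CCN2 start peak, compared with a median of 3.32 and a 99th percentile of 21.3 over all peaks. It was 42.6 tags under the CCN1 end peak. A background of at least 20 tags was found under 19 of the 210 peaks, compared with 1.30% of all peaks, and 16 of the 19 belonged to CCN1, CCN2, ANKRD1 and AMOTL2 and the other 3 to AJUBA. YAP1, WWTR1, TEAD1, TEAD4 and LATS2 had none. AMOTL2 had the highest gene median, 16.1 tags, a value reached by 0.633% of genes of similar length. The median background of CCN2, 3.58 tags, was below the 4.79 tags of its comparison genes, since most of its flank peaks lay on low background. The gene median exceeded that of comparison genes in 9 of the 10 genes, where 49.7% of all protein-coding genes do, and the median fold was below it in 9 of the 10, YAP1 being the exception.

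**Figure D5:**
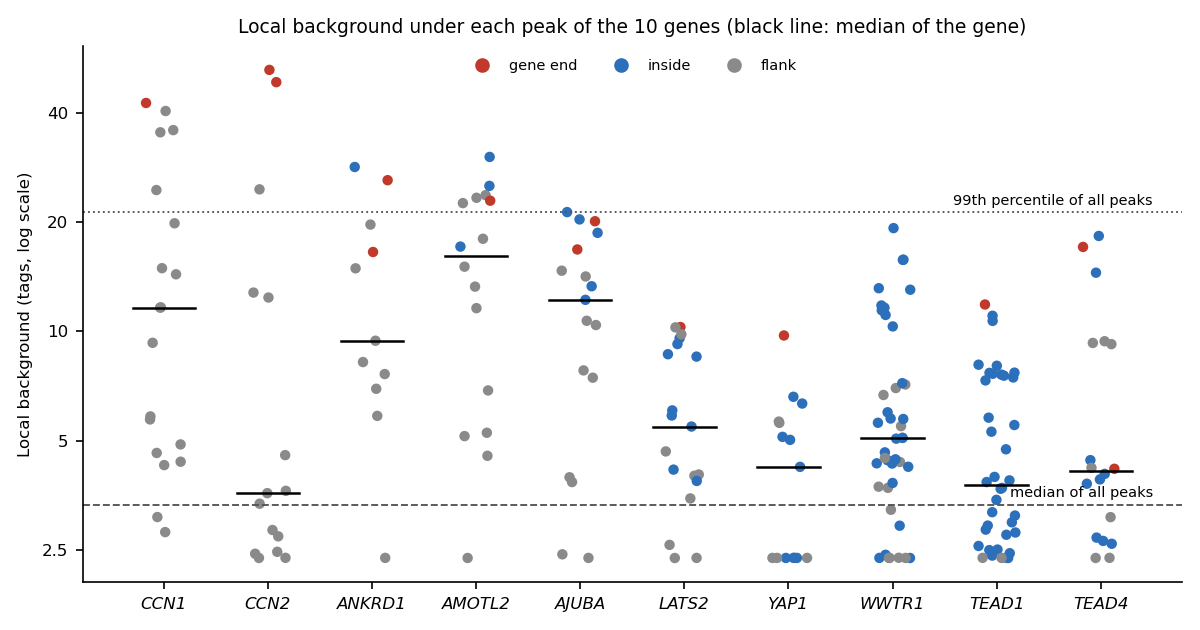
Each point is a peak, placed by gene and by the local background beneath it in tags on a log scale; red is a gene end, blue inside, grey flank, and the black line the median of the gene. Dashed and dotted lines mark the median and the 99th percentile of all peaks, 3.32 and 21.3 tags. The points of LATS2, YAP1, WWTR1, TEAD1 and TEAD4 all lie below the dotted line.

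Other genes of the pathway were read from 4 lists, 44 genes in all, of which 40 (90.9%, 95% Wilson interval 78.8% to 96.4%) had a peak at a gene end, compared with 72.8% of protein-coding genes. These lists were chosen with earlier results of these data known and were not matched to other genes, so this interval is not a test either. Among 18 upstream kinases, scaffolds and regulators, 17 had one. Taking the widest end peak of each gene, FAT4, an atypical cadherin gene, had the widest in this list at 2374 bp, and MAP4K4, a kinase gene that acts on LATS, the narrowest at 752 bp. STK3, an upstream kinase gene, had no end peak but 24 peaks inside. Of 6 other TEAD and VGLL genes, 5 had an end peak, from 326 bp at VGLL2 to 2494 bp at VGLL4, whose product competes with YAP for TEAD, and VGLL1 had none. Of the 4 other CCN genes, 2 had an end peak, CCN3 with the widest at 1185 bp and a pileup of 14.8 tags and CCN5, while CCN4 and CCN6 had none. All 16 other YAP/TEAD target genes had an end peak, from 396 bp at FOXF2 to 2463 bp at ARHGEF17. End peaks of at least 2000 bp were found in 3 of the 44 genes, 1 in each list other than the CCN genes. The 16 targets had a median of 18.5 peaks within 50 kb, close to the 17.5 of the 10 genes described here, and the median of their widest end peaks was 1056 bp, compared with 1841 bp.

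The library held 22188172 tags after filtering, and the lowest pileup called was 8.0 tags, so a site without a peak was not detectable as open at this depth and setting. All 10 endothelial markers examined, PECAM1, CDH5, KDR, TEK, TIE1, ERG, ESAM, VWF, CLDN5 and ROBO4, had an end peak, compared with 72.8% of protein-coding genes. The pileup of their widest end peaks ran from 11.0 tags at ERG to 73.0 at ROBO4, with a median of 40.2. Of 18 markers of other cell types, 11 had an end peak, with pileups from 9.31 tags at EPCAM to 56.8 at RGS5 and a median of 21.3. By type these were 3 of 3 neuron markers, 1 of 3 for astrocytes, 2 of 3 for pericytes, 2 of 3 for leukocytes and microglia, 1 of 3 for fibroblasts and 2 of 3 for epithelium. The 7 without an end peak were AQP4, SLC1A3, KCNJ8, AIF1, DCN, LUM and CDH1, and of these AQP4 and KCNJ8 had no peak within 50 kb.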

How the data were processed

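ATAC-seq peaks of hCMEC/D3 replicate 2 were used. Per the file headers, the authors called broad peaks with MACS 2.2.7.1 from 1 library and no control. The header gives a shift of -100 bp, an extension to 200 bp, q of 0.05 and 0.1 for strong and broad regions, at most 1 tag at a position, and a genome size of 1870000000 bp, which is the caller's mouse setting although the cells are human. A larger genome size would lower the background floor and raise folds at peaks on it. The deposited list gives for each peak the pileup signal, the fold ratio over local background, and −log10 p-value and q-value. The submitters' processing notes name Bowtie2, SAMtools 1.13, Picard and the builds GRCh38 and mm10, with no role. Sequencing was paired-end at 75 bp per the labels, and peaks were called in single-end mode per the file headers.

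Local background was computed as (pileup + 1)/fold − 1, and 34.7% of peaks fell within 0.01 tags of the floor of 2.37 tags that the header implies. Genes and start windows came from RefSeq tables of GRCh38.p14. A start window met a peak for 64.8% of entries, and for at most 6.47% after offsets of 2 to 50 kb. The share without offset was the highest on 22 of the 23 chromosomes checked, the other having no such peak at any offset. Chromosome 8 was not among the 23, and the genes examined here that lie on it had no start entry. Peaks counted with an overlap of at least 1 bp, with ends taken as 1 kb on either side. Overlap and motif code was checked on simulated data. The RNA tables of 2 libraries list transcripts that the reference tables do not pair with genes, and were not used here. Members, lists and tests were chosen with earlier results of these data known. All members are named, and from each pathway list the genes with the widest and narrowest end peak and up to 4 genes without one. For CCN1 and CCN2 the 3 genes of similar length closest in covered bases are named. Analyses used Python 3.11.15, pandas 2.3.3 and scipy 1.17.1. Wilson intervals cover counting error over genes only.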

Additional observations from a re-analysis of the deposited data

How the results depend on the processing

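No paired analysis was possible because there is 1 ATAC library, and no result comes from a test. Keeping only the 66460 peaks with a fold of at least 4 left 4 of the 10 genes with an end peak instead of 9, a median of 8.5 peaks per gene instead of 17.5, and 22 of the 44 other pathway genes with an end peak instead of 40. With the same number of peaks chosen by pileup, a setting chosen after seeing the data, the same 3 values were 9, 15 and 37. For neither filter was it worked out how many genes of the whole table kept a peak at an end. Whether the 10 or the 44 genes lost such peaks more often than other genes was therefore not tested. The genes above the comparison median in peak number were 8 with the fold filter, 9 with flanks of 100 kb and 10 in every other setting run: flanks of 25 kb, −log10 q of at least 5, comparison genes of a narrower or wider range of length, comparison genes of the same chromosome (chosen after seeing the data), the pileup filter, and leaving out peaks at ends of other protein-coding genes. For covered bases the count was 9 with the fold filter and 10 in all the others named here, flanks of 100 kb included. End windows of 500 and 2500 bp and an overlap of at least 200 bp each left 9 genes with an end peak. For end peaks and for the counts above the comparison median, shares of all protein-coding genes were worked out only at the settings of the Results. The longer motifs GGAATGT or AGGAATG were held by 4 of 7 genes instead of 6. The peak numbers of single genes were also read with the fold and q filters, other flanks, and without peaks at ends of other genes. They differed from those reported by more than 1.5-fold in 18 cases and by no more in 32. The fold filter left AMOTL2 with 2 peaks instead of 16 and YAP1 with 10 instead of 15. A single library gives no replicate error for any of these values.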
